A study of Mus musculus with 16 samples.

Results

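The genes described here encode the glycoproteins and proteoglycans of the extracellular matrix, the elastic fibres and basement membranes, and the enzymes, inhibitors and chaperone that remodel or assemble the matrix. The list held 42 genes, with the collagens left out, and a probe was taken for a gene where the array named it by its symbol or by an older symbol of the same gene. Of the 42 genes, 41 had a probe, among 27673 genes named on the array. Of these, 38 were well enough above background to be tested, among 12331 genes tested in all. A gene belonged to the list by its name alone; the list itself was drawn up with earlier results of these data known.

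Expression was measured in hearts of 12 week old mice of 4 genotypes, 4 mice each, with 1 heart per two-colour array. The groups were wild type (MuRF1 +/+ MuRF2 +/+), double null (MuRF1 -/- MuRF2 -/-), MuRF1 null MuRF2 het (MuRF1 -/- MuRF2 +/-) and MuRF1 het MuRF2 null (MuRF1 +/- MuRF2 -/-). The labels call the groups strain-matched and the replicates biological, but do not name the strain of the hearts or the part of either gene that was removed. Each heart in the Cy5 channel was set against a common reference in the Cy3 channel, a pool of RNA of whole C57BL/6 pups taken on postnatal day 1. Values are log2 ratios of heart to reference, so a value of 1 means that the heart gave 2 times the signal of the pups. Matrix genes are active in growing pups, and 33 of the 38 tested genes were below 0 in wild type hearts. MuRF1 (gene Trim63) and MuRF2 (gene Trim55) are ubiquitin ligases of striated muscle. The ratio of Trim63 averaged 2.63 ± 0.09 (SD, n = 4) in wild type hearts and 1.94 ± 0.21 in MuRF1 het MuRF2 null hearts. Both groups without a MuRF1 allele were far lower, at -0.64 ± 0.22 (MuRF1 null MuRF2 het) and -0.72 ± 0.27 (double null). Trim55 was not lower in the groups without a MuRF2 allele: wild type hearts averaged -1.73 ± 0.16, double null hearts -1.35 ± 0.56, MuRF1 het MuRF2 null hearts -1.28 ± 0.19 and MuRF1 null MuRF2 het hearts -1.03 ± 0.48, above background on all 16 arrays. Its differences from wild type, 0.37 ± 0.25 in double null and 0.44 ± 0.25 in MuRF1 het MuRF2 null hearts, did not pass (adjusted p = 0.276 and 0.408). Whether the Trim55 probe lies in the removed part is not known here, so the MuRF2 genotype rests on the labels.

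The heart's matrix holds its muscle cells, vessels and valves in place and passes force between them. Fibroblasts make most of its interstitial proteins, and muscle and endothelial cells are each bounded by a basement membrane of laminins, nidogens, perlecan and network-forming collagen. Matricellular proteins such as thrombospondins, periostin and tenascin-C are low in the resting adult heart and are known to rise when it is injured or overloaded. Matrix metalloproteinases cut these proteins, and tissue inhibitors of metalloproteinases (TIMPs) block the cut.

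The arrays differed in brightness, and the matrix genes moved with it. Cy5 was well above background for 15171 to 16664 probes on wild type arrays and for 16129 to 17391 on MuRF1 het MuRF2 null arrays. It was so for 6037 to 14503 probes on double null arrays and for 6402 to 15067 on MuRF1 null MuRF2 het arrays. The dimmest arrays were double null 2 and MuRF1 null MuRF2 het 1. On these the median ratio of the 38 genes was -0.37 and -0.44, and 20 and 21 of the 38 were above background. On the other 14 arrays the median lay between -1.11 and -0.89, and 32 to 38 genes were above background. Counts below are therefore also given without the 2 dimmest arrays, a setting chosen after the data were seen. Wild type and double null hearts shared slides, 2 of each on slide 1 and 2 of each on slide 3. Each of the other mutant groups filled a slide by itself (MuRF1 null MuRF2 het slide 2, MuRF1 het MuRF2 null slide 4), and in their case an effect of the slide and an effect of the genotype cannot be told apart. The MuRF1 het MuRF2 null arrays were also the only ones read with version 9.5.3.1 of Feature Extraction, the other 12 with 9.1.3.1, which likewise cannot be told apart from that genotype. In whole hearts, fewer cells of a type and less RNA per cell cannot be told apart either.

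**Figure D1:**
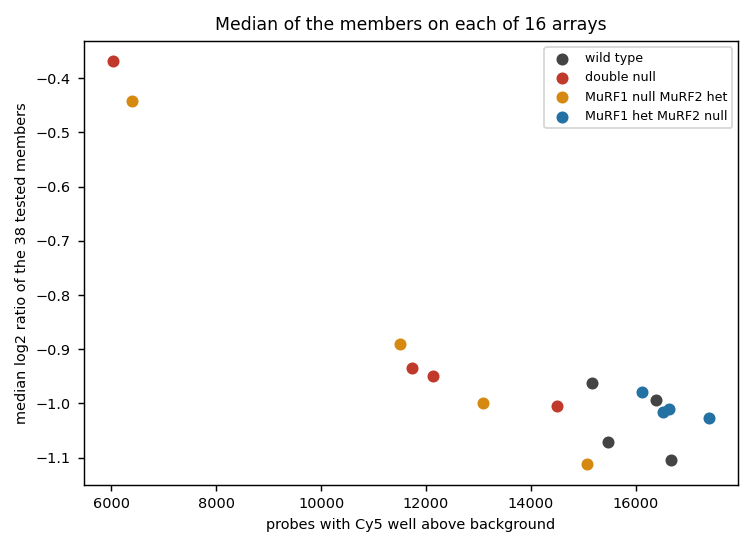
Median log2 ratio of the 38 tested matrix genes on each of the 16 arrays (vertical axis) against the number of probes with Cy5 well above background (horizontal axis), coloured by genotype. The 2 dimmest arrays, at 6037 and 6402 probes, have medians of -0.37 and -0.44, and the other 14 lie between -1.11 and -0.89.

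In double null hearts, 4 of 9 adhesive glycoproteins, 2 of 6 small proteoglycans and 2 of 7 elastic fibre proteins were higher than in wild type hearts, and 2 laminin beta chains and 2 TIMPs were lower. Of the 38 genes, 11 rose and 4 fell (limma, Benjamini-Hochberg adjusted p under 0.05 over all genes tested), but 9 of the 11 were below 0 with median centring, which moved the median of all genes by -0.49. Median centring called 0 of the 38 higher and 24 lower, where 18 and 6876 of all 12331 genes were. With it, 8 of the 11 were still above the median of all genes. The Feature Extraction log ratio called 4 higher and 4 lower, where 721 and 1446 of all genes were. Among the 11, Timp2 had a value on 1 double null array and Tnc was above background on 1. Of all genes tested 22.3% passed, 10.3% higher and 12% lower. The largest rise was of Thbs4 (1.80 ± 0.29 SE, 3.48-fold), followed by Mfap4 and Comp, and the largest fall of Lamb2 (-1.15 ± 0.22, 2.21-fold). The median difference of the 38 genes was 0.24, against 0.01 for all genes. For 8 genes all 4 double null arrays lay above the 4 wild type arrays and for 1 they lay below, where 12.6% and 12.9% of all genes did so.

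Genes with a wild type ratio below 0 were, over the whole array, more often higher than lower in double null hearts, 17.8% against 2.41%. Among the 33 matrix genes on that side 11 rose and 2 fell. Genes with a wild type ratio over 0 were higher in 3.88% and lower in 20.2%, and among the 5 matrix genes on that side, namely Timp4, Lamb2, Prelp, Fbln1 and Lama2, 2 fell. Lamb1 and Timp3 were thus among the genes that fell with a wild type ratio under 0, and no gene with a ratio over 0 rose.

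**Figure D2:**
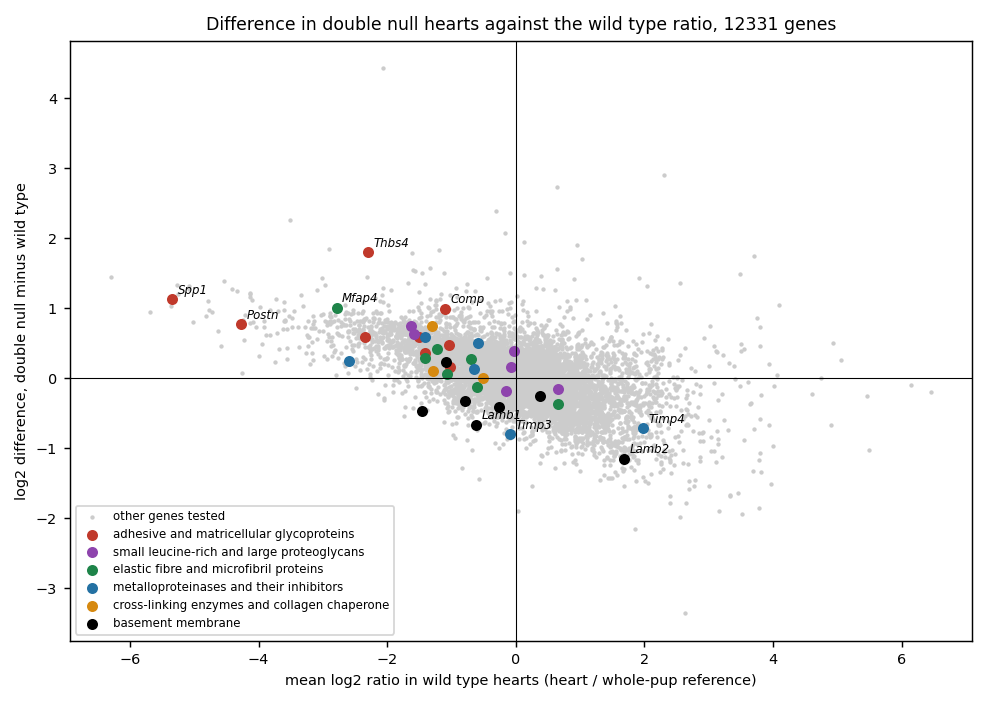
Log2 difference between double null and wild type hearts (vertical axis) against the mean log2 ratio of wild type hearts to the whole-pup reference (horizontal axis) for the 12331 genes tested, with the 38 matrix genes coloured by role. Thbs4 lies at 1.80 above a wild type ratio of -2.30, while Lamb1 and Timp3 lie below 0 on the left of the plot and Lamb2 at -1.15 on the right.

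The counts depended on single arrays and on brightness, while the calls of 7 genes did not depend on any 1 array. Thbs4, Comp, Mfap4, Lum, Lamb1, Lamb2 and Timp3 passed in all 8 fits that left out a wild type or double null array. The count of changed genes was 7 without wild type 2, 8 without wild type 3, 9 without wild type 4, 10 without double null 2 and 10 without double null 4. Without the 2 dimmest arrays 12 genes rose and 7 fell (29.3% of all genes passed, 14.6% higher and 14.7% lower), and the median was 0.05. Of the 15 genes, 14 passed there in the same direction, and the other, Timp2, had no value left in double null hearts. The 5 genes added were Fn1 and Spp1, higher, and Lama4, Lamc1 and Nid1, lower. With Cy5 brightness as a covariate 2 rose (Thbs4 and Lum) and 5 fell, against 5.6% and 7.18% of all genes, and the median was -0.09.

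Of the 15 genes, 14 differed in the same direction on both slides that held both groups, and Timp2 had no double null value on slide 3. On slide 1 alone limma called none of the 38 (15 at an unadjusted p under 0.05) and none of all genes. On slide 3 alone it called 16, 9 higher and 7 lower, where 19.1% of all genes passed, 8.62% higher and 10.4% lower. With slide as a block in the fit 8 rose and 3 fell, where 19.3% of all genes passed, 9.06% higher and 10.3% lower. A test of whether the difference itself depended on the slide called 0 of 38 matrix genes with limma (8 at an unadjusted p under 0.05) and 0 of all 12331 genes (830 at an unadjusted p under 0.05), so the share at that unadjusted p was higher among the matrix genes.

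**Figure D3:**
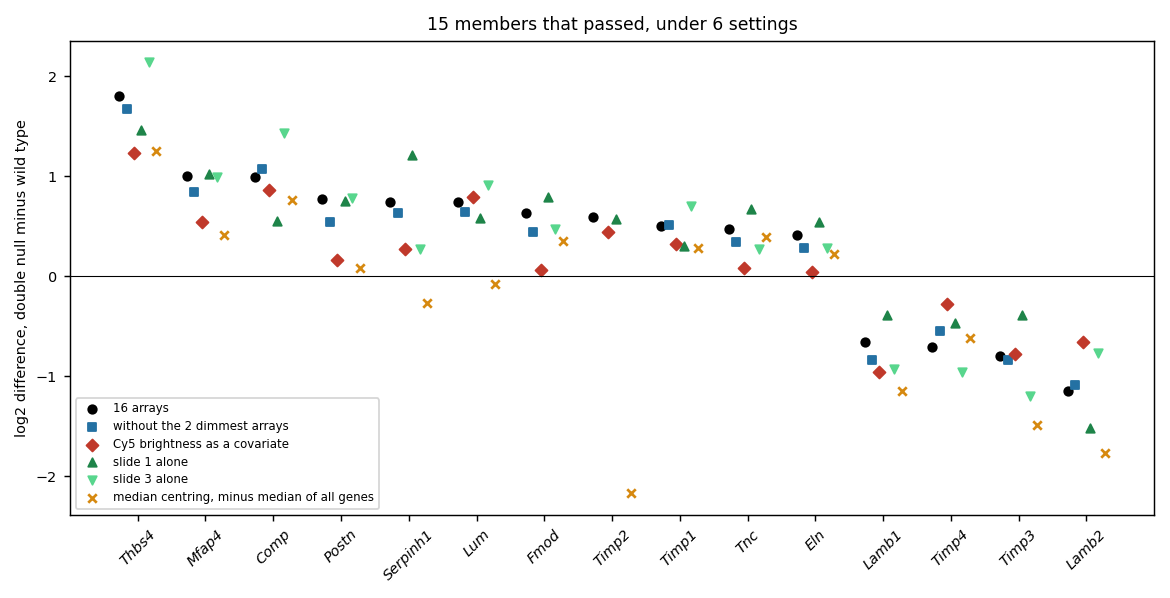
Log2 difference between double null and wild type hearts (vertical axis) for the 15 genes that passed (horizontal axis), with all 16 arrays, without the 2 dimmest arrays, with Cy5 brightness as a covariate, on slide 1 and slide 3 alone, and with median centring less its median over all genes of -0.49. Thbs4, Mfap4 and Comp are above 0 and Lamb1, Lamb2, Timp3 and Timp4 below 0 under all 6 settings, while Serpinh1, Lum and Timp2 are below 0 under the last.

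Among adhesive and matricellular glycoproteins, all 9 tested genes had a difference above 0 in double null hearts, but 3 of 9 did with median centring, 4 with brightness as a covariate and 7 on slide 3 alone. Of the 9, 4 passed, namely Thbs4, Comp, Postn and Tnc, of which Postn and Tnc were below 0 with median centring. Thrombospondin-4 is a pentameric matricellular protein known from stressed heart and skeletal muscle. Thbs4 was at -1.79, -2.33, -2.80 and -2.27 on wild type arrays 1 to 4 and at -1.09, -0.12, -0.21 and -0.58 on double null arrays 1 to 4. Every double null array lay above every wild type array, and the difference of 1.80 ± 0.29 (adjusted p = 0.000867) was 1.46 on slide 1 and 2.14 on slide 3. It was 1.67 without the 2 dimmest arrays and 1.23 with brightness as a covariate. A dimmer second probe for Thbs4, above background on 10 arrays, gave a smaller difference of 0.74 ± 0.17.

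Comp, cartilage oligomeric matrix protein or thrombospondin-5, followed with a difference of 0.99 ± 0.24 (1.99-fold, adjusted p = 0.01). It was at -1.16, -1.08, -1.13 and -1.0 on the wild type arrays, a narrow range, and at -0.80, -0.35, 0.57 and 0.17 on the double null arrays. The groups did not overlap, and the 2 double null arrays of slide 3 were the highest. The difference was 0.55 on slide 1 and 1.44 on slide 3, and 1.07 without the 2 dimmest arrays. Comp was not above background on double null 2.

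Thbs4 and Comp are known from tendon and cartilage as well as from heart, so markers of valve, cartilage and tendon were read beside them. Of 4 tested markers of that list, Scx, a transcription factor of tendon, rose (1.12 ± 0.16, adjusted p = 0.000482) and the other 3 did not pass. Over all genes 10.3% rose. The mean level of the list ranged from -0.76 to -0.36 on double null arrays and from -1.27 to -0.92 on wild type arrays, and the part of this in the rises of Thbs4 and Comp was not tested.

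Periostin, a matricellular protein of fibroblasts and valves, passed narrowly. Postn was at -4.18, -4.43, -4.24 and -4.23 on wild type arrays and at -4.27, -2.83, -3.29 and -3.61 on double null arrays. Double null 1 lay within the wild type range and double null 2, the dimmest, was the highest. The difference of 0.77 ± 0.26 (adjusted p = 0.0477) passed in 1 of the 8 fits that left out an array, was 0.55 without double null 2 (adjusted p = 0.132), and was 0.17 with brightness as a covariate.

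Tenascin-C, which is absent from most of the adult heart and returns around injury, was near the limit of detection. Tnc was at -1.0, -1.11, -1.08 and -0.96 on wild type arrays, where it was above background on all 4, and at -0.60, -0.18, -0.96 and -0.53 on double null arrays, where it was above background on array 1 alone. The difference of 0.47 ± 0.14 (adjusted p = 0.0302) passed in 2 of the 8 fits that left out an array and was 0.08 with brightness as a covariate.

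Osteopontin and fibronectin had large differences that did not pass. Spp1 was at -5.12, -5.43, -5.65 and -5.17 on wild type and at -4.66, -2.92, -4.82 and -4.46 on double null arrays, above background on arrays 1 and 3 of the latter. The groups did not overlap, but the spread in double null hearts was wide and the difference of 1.13 ± 0.40 had an adjusted p of 0.0541. Without the 2 dimmest arrays Spp1 was 0.69 higher (adjusted p = 0.00938) and Fn1 0.37 higher (adjusted p = 0.0235). Fn1, at 0.59 ± 0.23 over all arrays (adjusted p = 0.0706), had a second probe at 0.26 ± 0.14. Thbs2 was at 0.16 ± 0.16 and Thbs3 at 0.36 ± 0.17. Sparc, the collagen-binding osteonectin, was at 0.59 ± 0.43, with double null 2 far above the other arrays of its group. Its second probe was at 0.02 ± 0.17. With median centring Fn1, Thbs2, Thbs3 and Sparc passed as lower, where 6876 of all genes did.

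**Figure D4:**
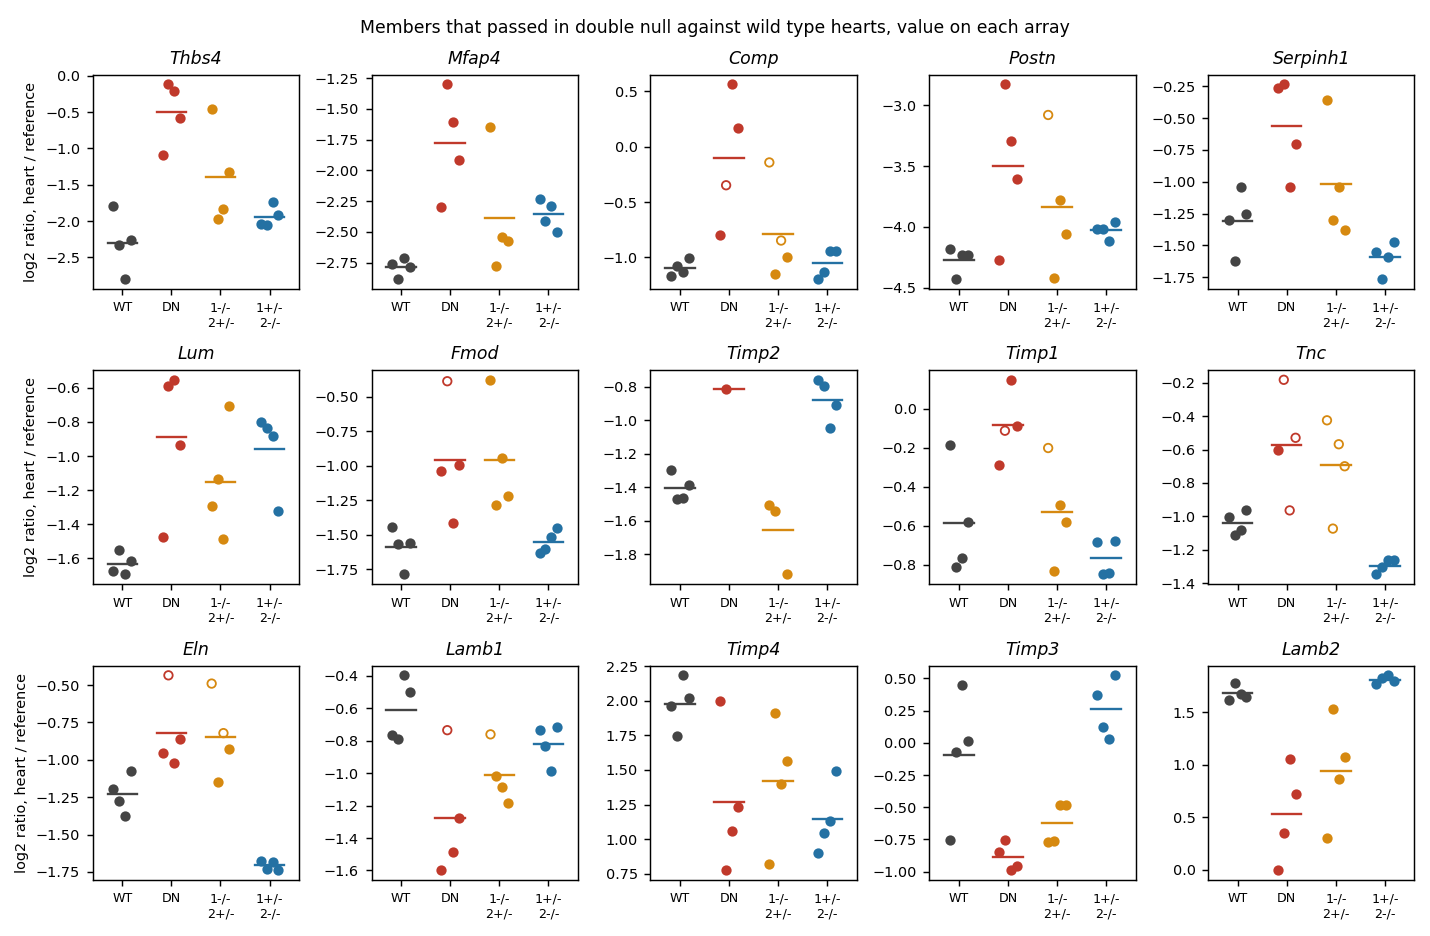
Log2 ratio of heart to reference on each array (vertical axis, with its own scale in each panel) for the 15 genes that passed in double null (DN) against wild type (WT) hearts, in the 4 groups, where 1-/- 2+/- is MuRF1 null MuRF2 het and 1+/- 2-/- is MuRF1 het MuRF2 null. Points are arrays in the order of their replicate numbers, open where Cy5 was not well above background, and lines are group means. For Thbs4, Comp, Mfap4, Lum, Fmod and Eln all 4 double null arrays lie above all 4 wild type arrays, and for Lamb2 they lie below. Over all genes 12.6% lay above and 12.9% below without overlap. Of the double null arrays, double null 2 alone has a value for Timp2.

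Of 6 small leucine-rich proteoglycans, which bind collagen fibrils and set their width and spacing, 2 rose in double null hearts, namely Lum and Fmod, both below 0 with median centring. Lumican was at -1.67, -1.55, -1.69 and -1.61 on wild type and at -1.47, -0.59, -0.55 and -0.94 on double null arrays. The wild type arrays were close together and all double null arrays lay above them, array 1 by the least. The difference of Lum was 0.74 ± 0.19 (1.67-fold, adjusted p = 0.0138), with 0.58 on slide 1 and 0.91 on slide 3, and it was 0.79 with brightness as a covariate. Fibromodulin was at -1.44, -1.57, -1.79 and -1.56 on wild type and at -1.04, -0.39, -1.41 and -0.99 on double null arrays. The groups again did not overlap, but Fmod passed in 3 of the 8 fits that left out an array, and its difference of 0.63 ± 0.20 (adjusted p = 0.0333) was 0.06 with brightness as a covariate.

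Decorin lies next to Lum on chromosome 10, with no other gene of the RefSeq table between them. Dcn was at 0.39 ± 0.17 in double null hearts (adjusted p = 0.104), with double null 3 left out as an irregular spot. It passed with irregular spots kept (0.47, adjusted p = 0.0445), on slide 3 alone (0.62) and without double null 1 (0.55), and was at -1.48 with median centring and -0.12 with the Cy5 channel alone. Biglycan (Bgn) was at 0.16 ± 0.10 and did not pass. Osteoglycin (Ogn) was at -0.19 ± 0.15 and Prelp, a heparin-binding member of the family, at -0.15 ± 0.22, neither of which passed. Prelp lies near Fmod on chromosome 1, with 2 genes between them.

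Among 7 elastic fibre and microfibril proteins, Mfap4 and Eln rose in double null hearts, both below 0 with median centring. Mfap4, a microfibril-associated protein that binds elastin and fibrillin, was at -2.76, -2.88, -2.71 and -2.78 on wild type and at -2.30, -1.30, -1.60 and -1.91 on double null arrays. All double null arrays lay above the wild type arrays, with array 1 the nearest. The difference of 1.01 ± 0.21 (2.01-fold, adjusted p = 0.00501) was 1.02 on slide 1 and 0.99 on slide 3, and it was 0.55 with brightness as a covariate (adjusted p = 0.0716). Elastin, the stretchable core of the fibre, was at -1.19, -1.28, -1.37 and -1.07 on wild type and at -0.95, -0.43, -1.02 and -0.86 on double null arrays. These groups were close but did not overlap, and the difference of Eln, 0.41 ± 0.14 (adjusted p = 0.0401), passed in 3 of the 8 fits that left out an array and was -0.06 with the Feature Extraction log ratio.

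Among the other microfibril and elastic fibre genes, fibrillin-1 (Fbn1) was at 0.07 ± 0.16, with a 95% interval of the difference from -0.28 to 0.41. Fibulin-5 (Fbln5), which guides elastin onto microfibrils, was at 0.29 ± 0.16, Mfap5 at 0.28 ± 0.11 and fibulin-2 (Fbln2) at -0.13 ± 0.25. Fibulin-1 (Fbln1) was at -0.36 ± 0.13 (adjusted p = 0.058), with a second probe at -0.59 ± 0.18. None of these 5 passed over all 16 arrays. Fbln1 passed, lower, without double null 3 (-0.47), with the Cy5 channel alone and with the mean of its probes, and Mfap5 passed, higher, without double null 1 (0.34) and with the Cy5 channel alone.

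Of the TIMPs, Timp3 and Timp4 fell in double null hearts, and Timp1 rose but was below 0 with median centring. Timp2 passed as higher on the value of 1 double null array, which gives no spread of its own. TIMP3 is bound to the matrix and also blocks ADAM proteases. Timp3 was at -0.75, -0.07, 0.45 and 0.01 on wild type and at -0.85, -0.75, -0.99 and -0.96 on double null arrays. Wild type 1 lay with the double null arrays, and the other 3 wild type arrays were clearly higher. The difference of -0.80 ± 0.19 (1.74-fold, adjusted p = 0.00857) was -0.39 on slide 1, which held wild type 1, and -1.20 on slide 3.

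TIMP4, the family member most abundant in heart, had the highest ratio to the reference of the 38 genes in wild type hearts. Timp4 was at 1.96, 1.74, 2.18 and 2.02 on wild type and at 2.00, 0.78, 1.06 and 1.23 on double null arrays. Double null 1 was at the wild type level and the other 3 were lower. The difference of -0.71 ± 0.24 (adjusted p = 0.0445) passed in 1 of the 8 fits that left out an array, and was -0.55 without double null 2 (adjusted p = 0.117) and -0.28 with brightness as a covariate.

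Timp1, an inhibitor known to be induced in fibrosis and inflammation, was at -0.18, -0.81, -0.76 and -0.58 on wild type and at -0.29, -0.11, 0.15 and -0.09 on double null arrays. Wild type 1 lay among the double null arrays. The difference of 0.50 ± 0.14 (adjusted p = 0.0238) passed in 5 of the 8 fits that left out an array, and a dimmer probe for Timp1 was at 0.09 ± 0.09. The spot of Timp2 was marked irregular on the other 3, and double null 2 was at -0.82 against -1.47 to -1.29 in wild type (0.59 ± 0.17, adjusted p = 0.0295). With the irregular spots kept, a setting added after the data were seen, Timp2 was at -0.25 (adjusted p = 0.402). The proteases themselves did not pass: Mmp2, a gelatinase, was at 0.13 ± 0.14 and Mmp14, a membrane-bound activator of MMP2, at 0.25 ± 0.28.

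Serpinh1, the collagen chaperone HSP47, rose in double null hearts but was below 0 with median centring. It was at -1.30, -1.62, -1.04 and -1.25 on wild type and at -0.26, -0.23, -1.04 and -0.70 on double null arrays. The highest wild type array and the lowest double null array, both on slide 3, were at the same level. The difference of 0.74 ± 0.21 (adjusted p = 0.0213) was 1.21 on slide 1 and 0.27 on slide 3, and it was 0.27 with brightness as a covariate. The cross-linking enzymes Loxl1 (-0.0024 ± 0.14) and Loxl2 (0.10 ± 0.16), which join lysines of collagen and elastin, did not pass.

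Basement membrane genes were the role in which most differences were below 0: of 7 tested genes 6 were below 0 in double null hearts, and Lamb2 and Lamb1 fell. With brightness as a covariate and on slide 3 alone all 7 were below 0, and on slide 1 alone and without the 2 dimmest arrays 6 were. All 7 were below 0 under median centring too, but the genes tested as a whole had a median of -0.49 there. The sign by itself thus says little under that scaling. Taken relative to -0.49, Lamb2 was at -1.77 and Lamb1 at -1.15. Laminins are trimers of an alpha, a beta and a gamma chain, and Lamb1 and Lamb2 encode alternative beta chains, the latter prominent in mature muscle and vessels. Lamb2 was at 1.61, 1.78, 1.68 and 1.65 on wild type arrays and at -0.0020, 0.35, 1.06 and 0.73 on double null arrays. The wild type values were tight and every double null array lay well below them. The difference of -1.15 ± 0.22 (adjusted p = 0.00255) was -1.52 on slide 1 and -0.77 on slide 3, -1.09 without the 2 dimmest arrays and -0.66 with brightness as a covariate (adjusted p = 0.0299).

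Lamb1 was at -0.76, -0.79, -0.40 and -0.50 on wild type and at -1.60, -0.73, -1.49 and -1.27 on double null arrays. Double null 2, where it was not above background, lay within the wild type range, and the other 3 double null arrays were all lower. The difference of -0.66 ± 0.16 (1.58-fold, adjusted p = 0.00948) was -0.84 without the 2 dimmest arrays and -0.96 with brightness as a covariate. Lamb1 and Lamb2 kept their direction and passed in each of the 8 fits that left out an array.

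The other basement membrane genes did not pass over all 16 arrays. The alpha chain genes Lama4, of vessels, and Lama2, of muscle, were at -0.40 ± 0.15 (adjusted p = 0.0598) and -0.25 ± 0.12 (adjusted p = 0.125). The gamma chain gene Lamc1 was at -0.33 ± 0.16 and the nidogen gene Nid1, whose product links laminin to collagen IV, at -0.46 ± 0.25. Without the 2 dimmest arrays Lama4 (-0.52 ± 0.12), Lamc1 (-0.44 ± 0.15) and Nid1 (-0.74 ± 0.18) passed, so that 5 of 7 fell there. In that setting 14.7% of all genes fell. Nid2, the other nidogen, was at 0.23 ± 0.18 over all arrays and 0.05 without the dimmest. It was above background on 1 double null array and on 1 MuRF1 null MuRF2 het array.

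**Figure D5:**
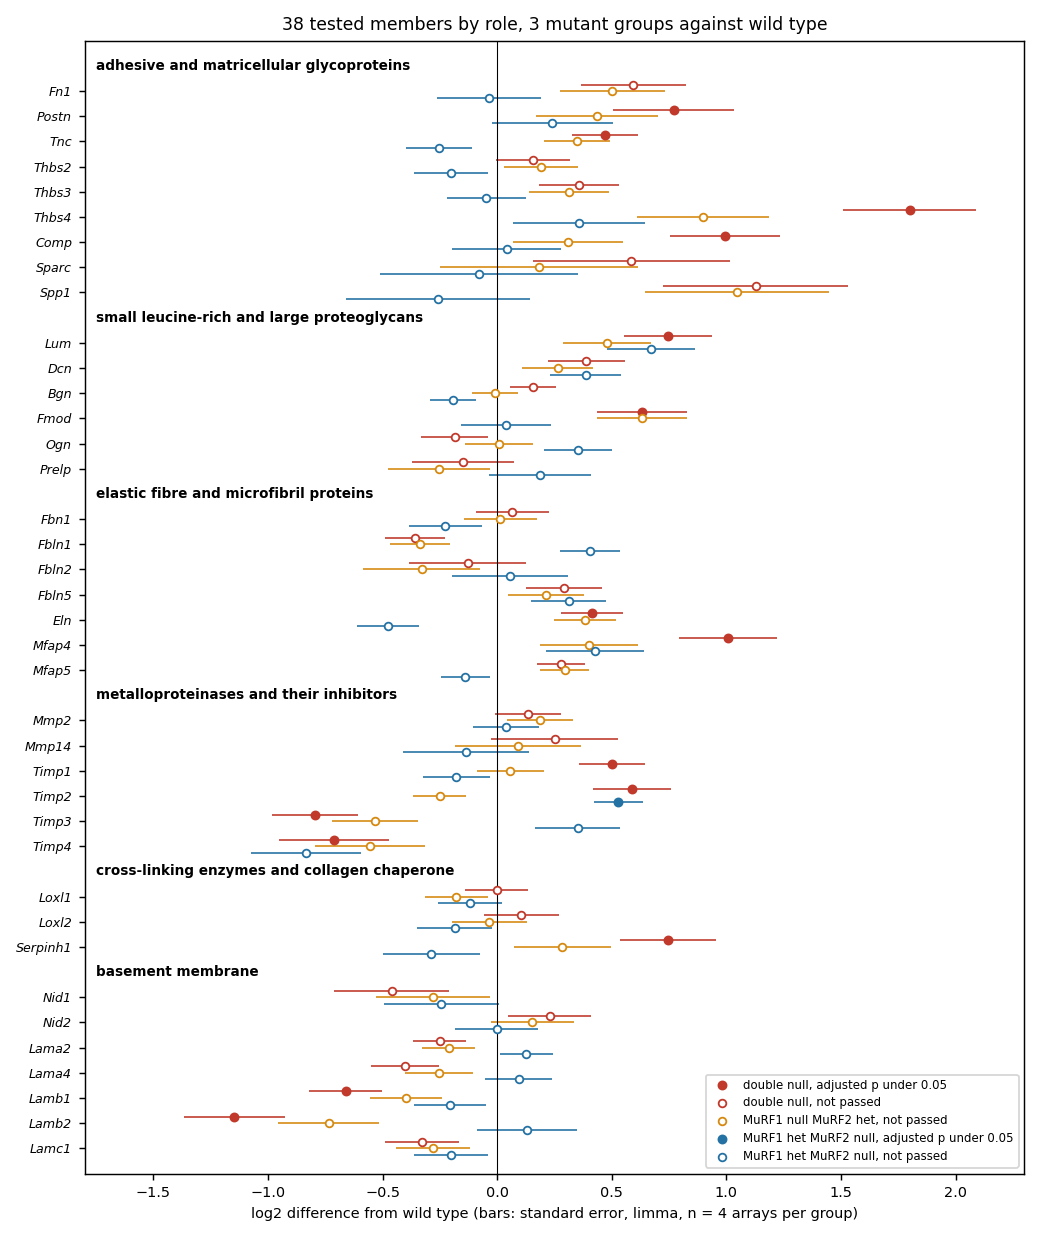
Log2 difference from wild type (horizontal axis, with the standard error from limma, n = 4 arrays per group) for the 38 tested matrix genes, grouped by role, in the 3 mutant groups. Filled points passed at an adjusted p under 0.05. In double null hearts all 9 adhesive glycoproteins lie above 0 (3 of 9 with median centring). Of 7 basement membrane genes 6 lie below 0 (7 of 7 with median centring). The rises of Postn, Tnc, Lum, Fmod, Eln, Mfap4, Timp1, Timp2 and Serpinh1 were below 0 with median centring. The genes tested as a whole had a median of -0.49 under that scaling, so the sign by itself says little there.

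Markers of the cells bounded by these membranes were read beside the laminins. Of all genes 12% fell in double null hearts, and 20.2% of those with a wild type ratio over 0. Of 12 endothelial markers 9 fell in double null hearts, among them the receptors Flt1 (-1.17 ± 0.19) and Kdr (-1.06 ± 0.19), with Eng and Cdh5. The mean level of the list was 0.08 to 0.24 on double null arrays and 0.69 to 0.77 on wild type arrays. Of 6 pericyte markers 5 fell, with Abcc9 at -1.20 ± 0.20, and their mean level was 0.04 to 0.17 against 0.54 to 0.79. Of 10 cardiomyocyte markers 4 fell and 6 did not pass, and the mean level of the list was 2.94 to 3.29 against 3.45 to 3.62. The part of these markers in the differences of Lamb1, Lamb2 and Timp3 was not tested.

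Fibroblast markers showed less, where 10.3% of all genes rose and 12% fell. Of 11 tested, 1 rose, the transcription factor Tcf21 (0.35 ± 0.08), which was below 0 with median centring. The mean level of the list ranged from -1.91 to -0.79 on double null arrays and from -1.92 to -1.73 on wild type arrays. Of 8 smooth muscle and myofibroblast markers Cnn1 and Tagln rose (both below 0 with median centring) and Smtn fell, with a mean level of -0.82 to -0.38 against -0.87 to -0.74. None of 10 macrophage and none of 4 epicardial markers passed with limma (2 and 1 at an unadjusted p under 0.05), with mean levels of 0.07 to 0.30 against 0.09 to 0.52 and of -0.67 to -0.14 against -0.65 to -0.38. The part of these cells in the rises was not tested.

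The 250 bases before the start are printed for Thbs4, Lamb1, Lamb2 and Timp3, whose calls held without any 1 array, to set the gene that rose most beside 3 that fell. RefSeq windows of the GRCm38.p6 assembly were at hand for 27 of the 42 genes. Sequences run 5′ to 3′ on the gene's own strand, and capitals mark GC boxes (GGGCGG) and CCAAT boxes (CCAAT), read on both strands.
Thbs4, chr13:92794819-92795068, minus strand: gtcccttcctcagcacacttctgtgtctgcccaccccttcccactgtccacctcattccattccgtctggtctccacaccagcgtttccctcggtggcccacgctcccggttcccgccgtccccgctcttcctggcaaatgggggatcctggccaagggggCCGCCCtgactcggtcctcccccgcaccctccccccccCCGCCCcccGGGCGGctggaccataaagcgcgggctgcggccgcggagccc
Lamb1, chr12:31265043-31265292, plus strand: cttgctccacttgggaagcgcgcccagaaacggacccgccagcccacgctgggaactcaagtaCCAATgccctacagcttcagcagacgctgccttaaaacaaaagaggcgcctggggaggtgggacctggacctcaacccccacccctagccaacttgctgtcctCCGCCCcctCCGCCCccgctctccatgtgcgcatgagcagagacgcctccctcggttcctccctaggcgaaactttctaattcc
Lamb2, chr9:108479612-108479861, plus strand: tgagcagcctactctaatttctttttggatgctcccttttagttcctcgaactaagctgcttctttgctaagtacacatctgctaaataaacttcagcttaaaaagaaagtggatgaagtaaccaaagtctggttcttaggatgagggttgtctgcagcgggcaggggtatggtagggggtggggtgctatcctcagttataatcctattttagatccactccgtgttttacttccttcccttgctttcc
Timp3, chr10:86300162-86300411, plus strand: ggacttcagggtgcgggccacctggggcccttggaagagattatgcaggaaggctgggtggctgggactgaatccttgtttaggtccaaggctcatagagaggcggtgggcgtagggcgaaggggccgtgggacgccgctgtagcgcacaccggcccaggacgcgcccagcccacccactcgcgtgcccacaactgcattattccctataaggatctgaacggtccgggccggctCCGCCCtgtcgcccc

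Thbs4, which rose, holds 3 GC boxes in a window of 70.8% G and C, and Lamb2, which fell, holds none of the motifs searched in a window of 43.6%. Lamb1 holds 2 GC boxes and 1 CCAAT box (62% G and C) and Timp3 1 GC box (65.6%). Thbs4 was thus highest of the 4 in both, but 1 gene that rose beside 3 that fell allows no comparison of rises with falls. GC boxes were found in windows of 17 of the 27 genes, and in 32.7% of all 32851 windows of the table. The TATA box (TATAAA) was found for 5 genes, in 12.4% of all windows, and CCAAT for 11, in 33.9% of all windows. The AP-1 motif (TGANTCA) and an E2F motif (TTTNGCGC), searched because the series names E2F1, were in windows of 0 of the 27 genes and in 6.75% and 1.13% of all windows. No motif found in the 4 windows overlapped another, and a match is a description of the sequence.

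Receptors and further matrix genes were read from lists of related genes, and up to 4 passing genes with the smallest p are named per list. Of 24 matrix receptors 4 fell and 1 rose in double null hearts, where 12% of all genes fell and 10.3% rose. Dag1, dystroglycan, the receptor of laminin on muscle cells, fell by 0.90 ± 0.13 (1.87-fold, adjusted p = 0.000482), and the integrin alpha-6 chain of laminin receptors, Itga6, fell by 0.37 ± 0.10. Itgb6 (-0.64 ± 0.17) fell as well, and Cd44, the hyaluronan receptor that also binds osteopontin, rose (0.50 ± 0.15, below 0 with median centring).

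Of 38 other matrix glycoproteins and proteoglycans 6 rose and 4 fell (10.3% and 12% of all genes). Mgp, matrix Gla protein, an inhibitor of calcification (1.26 ± 0.24), and Ltbp2, which binds fibrillin (0.99 ± 0.22), rose, Mgp being at -0.0041 with median centring. Emilin2, an elastic fibre glycoprotein, fell by 1.54 ± 0.22 (2.91-fold) and Lama5, a laminin alpha chain of vessels, by 0.90 ± 0.15.

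Of 21 other proteases and inhibitors 4 rose and 4 fell (10.3% and 12% of all genes). The membrane protease Mmp15 was lower by 1.10 ± 0.15 (2.14-fold, adjusted p = 0.000348). Adam15 and Adam17 were lower too, and Mmp23 was higher (0.48 ± 0.15, but -0.05 with median centring). Of 15 collagen processing enzymes P4ha1, a prolyl hydroxylase, rose (0.61 ± 0.14) and Plod1, a lysyl hydroxylase, fell (-0.40 ± 0.14).

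Of 17 genes of the TGF-beta pathway, which drives matrix synthesis, 6 rose and 1 fell, while the median of the list was -0.0020. Over all genes 10.3% rose and 12% fell. Ccn2, connective tissue growth factor, rose by 2.38 ± 0.39 (5.22-fold, adjusted p = 0.000886), the ligand Tgfb2 by 0.87 ± 0.18 and the receptor Tgfbr1 by 0.28 ± 0.07, the last below 0 with median centring. Agtr1a, an angiotensin II receptor that acts upstream of the pathway, fell by 1.31 ± 0.20 (2.48-fold).

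In MuRF1 null MuRF2 het hearts, which keep 1 MuRF2 allele, none of the 38 matrix genes passed against wild type with limma (13 at an unadjusted p under 0.05), where 1.03% of all genes did, 0.316% higher and 0.714% lower. The median was 0.12. The adhesive glycoproteins were all 9 above 0, against 0 of 9 with median centring and 2 with brightness as a covariate, with Spp1 at 1.05 ± 0.40 (adjusted p = 0.153) and Thbs4 at 0.90 ± 0.29 (adjusted p = 0.113). Thbs4 was at -0.46 on MuRF1 null MuRF2 het 1, the dim array, and at -1.97, -1.84 and -1.33 on arrays 2 to 4. Lamb2 was at 0.30, 1.53, 0.87 and 1.07 on the 4 arrays, all below the wild type arrays, and its difference of -0.74 ± 0.22 had an adjusted p of 0.0942. Fmod, at 0.63 ± 0.20 (adjusted p = 0.105), and Lum, at 0.48 ± 0.19, were above wild type on all 4 arrays.

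Single arrays moved this count from 0 to 7, the latter without MuRF1 null MuRF2 het 2, the brightest array of its group, and it was 1 without wild type 1. Without MuRF1 null MuRF2 het 2, 724 of all 12331 genes were higher and 785 lower. Median centring gave 28, all lower, where 14 of all genes were higher and 7365 lower. Weighting the arrays gave 12 (1155 and 1080 of all genes), and the Cy5 channel alone 1 (57 and 216). Since the group filled slide 2 alone, its values cannot be told apart from a shift of that slide.

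In MuRF1 het MuRF2 null hearts, which keep 1 MuRF1 allele and whose arrays were as bright as wild type, 1 matrix gene, Timp2, rose against wild type, where 2% of all genes passed, 0.665% higher and 1.34% lower. Timp2 was at -1.29, -1.47, -1.46 and -1.39 on wild type and at -0.76, -0.80, -1.04 and -0.91 on MuRF1 het MuRF2 null arrays. The groups did not overlap, but the difference of Timp2, 0.53 ± 0.11 (adjusted p = 0.0292) passed in 1 of the 8 fits that left out an array, and was -0.16 with median centring and -0.37 with the Cy5 channel alone. The count and its balance moved with the setting: 0 higher and 12 lower with median centring, 7 and 3 with the arrays of these groups alone, 7 and 6 with weighted arrays, 3 and 4 with brightness as a covariate, 3 and 2 with the Cy5 channel alone, and 4 and 2 without the 2 dimmest arrays. Over all 12330 genes these settings gave, in the same order, 19 and 2533, 912 and 1172, 1361 and 1707, 506 and 764, 341 and 634, and 448 and 602. The median of the 38 genes was -0.02. Timp4 (-0.83 ± 0.24, adjusted p = 0.0847), Lum (0.67 ± 0.19, adjusted p = 0.0824) and Eln (-0.48 ± 0.14, adjusted p = 0.0816) had the smallest adjusted p after Timp2 and did not pass. Thbs4 was at 0.36 ± 0.29, Comp at 0.04 ± 0.24 and Lamb2 at 0.13 ± 0.22, with 95% intervals of -0.27 to 0.99, -0.48 to 0.56 and -0.35 to 0.61.

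The mutant groups were also compared with each other, as they differ in the alleles that remain. Between double null and MuRF1 null MuRF2 het hearts limma called 0 of 38 matrix genes (6 at an unadjusted p under 0.05) and 0.349% of all genes. Thbs4 was 0.90 ± 0.29 higher in double null hearts (adjusted p = 0.242), with a 95% interval of 0.27 to 1.53, and Comp 0.68 ± 0.24 higher (adjusted p = 0.308). Without MuRF1 null MuRF2 het 1 there were 5 calls, without double null 1 there was 1, and without both dim arrays 4. Over all genes these settings gave 137 higher and 223 lower, 47 and 67, and 225 and 256 in the same order.

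Between double null and MuRF1 het MuRF2 null hearts 10 matrix genes were higher and 7 lower in double null hearts. Of all genes 26.4% passed, 13.7% higher and 12.7% lower. This comparison shares its double null arrays with that against wild type. The genes called higher were Eln, Tnc, Thbs4, Serpinh1, Timp1, Comp, Mfap5, Bgn, Spp1 and Fmod, of which Bgn was below 0 with the Cy5 channel alone and under the Feature Extraction ratio. The lower genes were Timp3, Lamb2, Fbln1, Ogn, Lama4, Lama2 and Lamb1. Without the 2 dimmest arrays 13 were higher and 9 lower (2139 and 1865 of all genes), and with median centring 3 and 4 (375 and 497 of all genes). Fmod passed in 1 of the 8 fits that left out an array, and Lama4 and Lama2 in 3.

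Of the adhesive glycoproteins, Thbs4, Comp and Spp1 were higher in double null than in MuRF1 het MuRF2 null hearts. Thbs4 was at -2.05, -2.06, -1.74 and -1.91 on MuRF1 het MuRF2 null arrays, all below the double null arrays (1.44 ± 0.29, 2.72-fold, adjusted p = 0.00265). Comp was at -1.20, -1.13, -0.95 and -0.94 (difference 0.95 ± 0.24, adjusted p = 0.00969). Both genes stood at the wild type level in MuRF1 het MuRF2 null hearts within the spread of the arrays. Spp1 was at -5.54, -5.71, -5.64 and -5.52, a narrow range, and was 1.39 ± 0.40 higher in double null hearts (adjusted p = 0.02). Tnc, at -1.35, -1.31, -1.26 and -1.26, passed too, but it was above background on 1 double null array, and its difference of 0.73 was 0.24 with the Cy5 channel alone (adjusted p = 0.172) and 0.18 under the Feature Extraction ratio (adjusted p = 0.538). Timp1 at -0.68, -0.85, -0.84 and -0.68 in MuRF1 het MuRF2 null hearts.

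Elastin had its lowest mean ratio in MuRF1 het MuRF2 null hearts, though this order did not hold with the Cy5 channel alone. Its difference from wild type there did not pass over all 16 arrays. Eln was at -1.68, -1.73, -1.68 and -1.74 there and at -0.49, -1.15, -0.82 and -0.93 in MuRF1 null MuRF2 het hearts. No array of these groups overlapped. Eln was 0.86 ± 0.14 lower than in MuRF1 null MuRF2 het hearts (adjusted p = 0.00364), whereas the Cy5 channel alone gave 0.05. The Feature Extraction log ratio gave -0.30 (adjusted p = 0.485). Against double null hearts the difference was 0.89 ± 0.14 (adjusted p = 0.000484), and 0.02 with the Cy5 channel alone. Mfap5 was at -0.80, -0.91, -0.79 and -0.82, and double null hearts, at -0.60, -0.33, -0.40 and -0.32, were 0.42 ± 0.11 higher. Mfap5 was above background on 1 double null array and on 1 MuRF1 null MuRF2 het array.

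Of the 7 basement membrane genes 4 were lower in double null than in MuRF1 het MuRF2 null hearts. Over all genes 12.7% were lower in this comparison. Lamb2 was at 1.77, 1.82, 1.85 and 1.80 on MuRF1 het MuRF2 null arrays, so that double null hearts were 1.28 ± 0.22 lower (2.42-fold, adjusted p = 0.00106). Lama4 was at -0.04, -0.17, -0.46 and -0.0019 there and at -0.95, -0.30, -0.64 and -0.76 on double null arrays (-0.50 ± 0.15). Lama2 was at 0.52, 0.66, 0.47 and 0.36 against 0.10, 0.0066, 0.26 and 0.13 (-0.38 ± 0.12). Lamb1, at -0.74, -0.83, -0.99 and -0.72, had a difference of -0.45 ± 0.16 (adjusted p = 0.0444), which passed in 2 of the 8 fits that left out an array.

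Timp3 stood highest in MuRF1 het MuRF2 null hearts, at 0.37, 0.12, 0.03 and 0.52, and double null hearts were 1.15 ± 0.19 lower (2.21-fold, adjusted p = 0.000762). Fibulin-1 showed the same order of groups. Fbln1 was at 1.19, 0.74, 1.23 and 1.06 in MuRF1 het MuRF2 null, 0.53, 0.64, 0.83 and 0.60 in wild type and 0.19, 0.14, 0.62 and 0.21 in double null hearts. Only the highest double null array reached the wild type range, and the difference between the mutant groups was -0.76 ± 0.13 (adjusted p = 0.00106). Ogn was at 0.08, 0.28, 0.23 and 0.23 against -0.69, -0.32, -0.03 and -0.29 in double null hearts (-0.54 ± 0.15). Bgn was at -0.27, -0.16, -0.16 and -0.47 against -0.0023, -0.04, 0.28 and 0.09 (0.35 ± 0.10).

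Between MuRF1 het MuRF2 null and MuRF1 null MuRF2 het hearts, whose slides differ entirely, Timp2, Fbln1, Timp3 and Lamb2 were higher in the former and Eln and Mfap5 lower, and Tnc passed with no direction that its signal can support, where 8.53% of all genes passed, 3.94% higher and 4.59% lower. Eln was above 0 with the Cy5 channel alone. Timp3 was at -0.77, -0.76, -0.48 and -0.48 on MuRF1 null MuRF2 het arrays, below all MuRF1 het MuRF2 null arrays (0.88 ± 0.19, adjusted p = 0.0139). Fbln1 was at 0.30, 0.51, 0.07 and 0.38 there (0.74 ± 0.13, adjusted p = 0.00657). Timp2 was at -1.50, -1.54 and -1.92 on arrays 1, 2 and 4, array 3 being left out as an irregular spot (0.78 ± 0.12, adjusted p = 0.0051). Tnc was not well above background on any MuRF1 null MuRF2 het array and was so on all 4 MuRF1 het MuRF2 null arrays, its fitted difference was 0.074 under the Feature Extraction ratio, and no fold is given for it. Lamb2 (0.87 ± 0.22, adjusted p = 0.0273) passed in 2 of the 8 fits that left out an array, and Tnc and Mfap5 in 3. The count was 3 without MuRF1 het MuRF2 null 1 and 4 without MuRF1 het MuRF2 null 2 or 4. It was 4 without MuRF1 null MuRF2 het 1 or 3, and 11 without MuRF1 null MuRF2 het 2. Of all genes, 103 were higher and 118 lower without MuRF1 het MuRF2 null 1 (171 and 168 without 2, 158 and 188 without 4). These counts were 190 and 217 without MuRF1 null MuRF2 het 1, 163 and 189 without 3, and 923 and 1184 without 2.

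Of the 42 genes, 4 were not tested. Thbs1 and the lysyl oxidase gene Lox were above background on no array, and the brightest probe for Vcan, the large proteoglycan versican, on 3. No probe was named for Hspg2, which encodes perlecan. These genes are not reported as absent from the heart, since a probe below background gives only a bound.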

How the data were processed

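Each of the 16 arrays was a two-colour Agilent array, and its Feature Extraction file was used as the authors deposited it. Mean signal and background of each spot are intensities per the file headers. The files also hold a log10 ratio of red over green, dye-normalised by the Feature Extraction software per the file headers, and flags for background and irregular spots (coded 0 or 1, other values per the file headers). The authors' deposited series table holds log2 values; these followed the Feature Extraction ratio less each probe's median over arrays (r = 0.992 over probes; 71.5% within 0.01), so their level is centred by probe, with column medians of -0.03 to 0.02, and their direction is heart over reference. The labels' channel entries put the hearts in Cy5, although a labelling text of the protocols names Cy3 for them.

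Of 45018 spots 1639 were controls. Spot intensities were background-corrected (normexp, offset 50) and loess-normalised within each array, with controls and irregular spots at weight 0 and irregular spots then left out. Spots of a probe were averaged. Of 41174 probes, 16810 passed a filter that asked for Cy5 well above background on 4 or more arrays. Probes were named through RefSeq accessions or symbols (22951 by accession, 6659 by symbol, 3104 by an older symbol), and the others kept the file's name. The probe with the highest mean Cy5 stood for a gene, which left 12331 genes. Limma 3.58.1 in R 4.3.3 (lmFit and eBayes) was fitted over all 16 arrays, with Benjamini-Hochberg adjustment over all genes. In this fit all groups shared a common estimate of spread for each gene, which eBayes then drew towards that of the other genes. P-values therefore rest on the spread between hearts within all groups, with 4 hearts in each, and not on the compared groups alone. On simulated data for double null against wild type (12270 genes) 48% of changes of 0.5 and 89% of changes of 1 on the log2 scale were recovered, with 5 false calls. The simulated noise was drawn independently for each gene and array, with no dim arrays and no shift shared between genes. These rates therefore need not hold for the real arrays.

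Alternatives were median centring without loess, scaling between arrays, the Cy5 channel alone, the Feature Extraction log ratio, the series table, other filters, the mean of a gene's probes, array weights, Cy5 brightness as a covariate, slide, replicate number, fewer groups and each array left out. All tested members of the list could be named, with values on every array for those that passed, and up to 4 passing genes of each related list by smallest p. The members and lists were chosen with earlier results of these data known.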

Additional observations from a re-analysis of the deposited data

Results flagged for a closer look

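In 7 of 149 groups of 4 arrays, each a tested matrix gene in a genotype, the highest or lowest array stood apart from the other 3 by more than Dixon's 95% critical value for the gap over the group's whole range, which chance gives in about 1 group in 20. Of these, 4 fell on the 2 dimmest arrays. On double null 2, Sparc was at 0.54 (the other arrays at -1.53 to -1.32), Mmp14 at -1.30 (the others at -2.80 to -2.58) and Loxl2 at -0.74 (the others at -1.36 to -1.29). On MuRF1 null MuRF2 het 1, Mmp14 was at -1.78 (the others at -2.80 to -2.66). The remaining 3 were Lum at -1.32 on MuRF1 het MuRF2 null 4 (the others at -0.88 to -0.80), Fbn1 at -1.29 on wild type 2 (the others at -1.0 to -0.96) and Fbln1 at 0.62 on double null 3 (the others at 0.14 to 0.21). In the fit reported above, neither Sparc, Mmp14, Loxl2 nor Fbn1 passed against wild type in any group. With median centring these genes passed as lower in double null hearts.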

How the results depend on the processing

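Counts of changed matrix genes are given in this order: double null against wild type, MuRF1 null MuRF2 het against it, MuRF1 het MuRF2 null against it, then double null against MuRF1 null MuRF2 het, double null against MuRF1 het MuRF2 null, and MuRF1 het MuRF2 null against MuRF1 null MuRF2 het. The reported counts were 15, 0, 1, 0, 17 and 7. Median centring gave 24, 28, 12, 0, 7 and 3. The Feature Extraction log ratio gave 8, 0, 0, 0, 10 and 3, and the values of the series table gave 8, 0, 0, 0, 11 and 3. They were 16, 1, 5, 0, 16 and 7 with the Cy5 channel alone, 25, 12, 13, 9, 29 and 17 with array weights, and a covariate for Cy5 brightness gave 7, 0, 7, 2, 13 and 7. With Cy5 above background required on all 16 arrays, which leaves fewer genes, they were 8, 0, 1, 0, 6 and 4. Without the 2 dimmest arrays they were 19, 1, 6, 4, 22 and 11, and with irregular spots kept 15, 0, 0, 0, 19 and 7, both settings chosen after the data were seen. With the arrays of the compared groups alone MuRF1 het MuRF2 null against wild type gave 10, and slide 1 alone gave 0 for double null against wild type. With each array left out in turn the counts ranged from 7 to 16, 0 to 7, 0 to 1, 0 to 5, 12 to 19 and 3 to 11. Counts over all genes moved with the setting too. For double null against wild type they were 1265 higher and 1485 lower as reported. They were 18 and 6876 with median centring, 3960 and 4157 with array weights, and 691 and 885 with the brightness covariate.

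Same-numbered arrays of different groups did not deviate together (correlations from -0.61 to 0.36), and the replicate number was not taken as a pairing. With the replicate block the counts were 11, 0, 0, 0, 15 and 7.

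Over the alternatives, 22 values of called genes turned direction, 216 kept it without passing and 703 kept both. In double null against wild type, median centring gave Eln -0.27, Fmod -0.14, Lum -0.57, Mfap4 -0.086, Postn -0.41, Serpinh1 -0.76, Timp1 -0.21, Timp2 -2.66 and Tnc -0.10. Eln was at -0.065 with the series table and also with the Feature Extraction ratio. Timp2 was at -0.0034 with the Cy5 channel alone, -0.45 with the series table and -0.25 with irregular spots kept. In MuRF1 het MuRF2 null against wild type, Timp2 was at -0.16 with median centring and -0.37 with the Cy5 channel alone. In double null against MuRF1 het MuRF2 null, Bgn was at -0.0037 with the Cy5 channel alone and -0.038 with the series table and also with the Feature Extraction ratio. In MuRF1 het MuRF2 null against MuRF1 null MuRF2 het, Eln was at 0.048 with the Cy5 channel alone and Tnc at 0.074 with the series table and also with the Feature Extraction ratio. Apart from what fewer genes or samples account for, the cause was not tested. With 4 arrays a group, Cy5 below background limits Tnc, Spp1, Mfap5, Nid2, Comp and Eln on the dim arrays.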
